A study of Drosophila melanogaster with 2 samples.

Results

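The genes described here are 10 genes of differentiated neurons: elav, fne and Rbp9, which make the ELAV family of neuronal RNA-binding proteins, the synaptic genes nSyb, Syt1, Syx1A, cpx and brp, and the channel genes cac and para. They were listed by name, and all 10 were found among the 13945 protein-coding genes of the 6 chromosome arms examined. For each gene, every listed summit inside the gene or within 5 kb of either end was collected, a stretch that is called the window of the gene. The data are a chromatin immunoprecipitation followed by sequencing (ChIP-seq) on whole Drosophila melanogaster embryos aged 0 to 24 h, both sexes together, of a stable transgenic line that makes E(spl)m3-HLH with GFP at its C terminus, with an antibody against GFP. There is 1 group of 2 biological replicates, numbered 2 and 3, and no untreated, wild-type or mutant group. Since the material is the whole embryo at all stages of embryogenesis, the lists do not say in which cells a site was bound, and binding in few cells cannot be told apart from weak binding in many. Peak lists measure no expression, so the neuronal label of the genes rests on what is known of them.

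The tagged protein, a DNA-binding repressor with a basic helix-loop-helix domain, is made in response to Notch signalling. In the fly neuroectoderm, cells that receive the Notch signal switch on proteins of this family, which repress the proneural genes and keep the cells from becoming neural precursors. The genes examined here act at the other end of that path, in the postmitotic neuron. ELAV family proteins bind RNA and change the splicing and 3' ends of neuronal transcripts, with elav used widely as a marker of neurons, while the synaptic genes make the machinery that releases transmitter and the channels carry the action potential and the calcium entry that triggers release.

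Sites were read from 4 lists on build dm6, which are described by the authors' own signal per peak. The pooled list was called on the alignments of both replicates together, and 1 further list was called on each replicate. The thresholded list held the 5701 pooled peaks kept by the authors' irreproducible discovery rate (IDR) procedure. The pooled list is labelled as peaks and background given as input to that procedure. A pooled summit outside the thresholded list may therefore be background and not a bound site. Every thresholded peak has a pooled signal of at least 108, and a rank of 1 is the strongest peak of a list. Signals of different lists are on different scales, so ranks are set side by side. Read counts are not in the lists, so depth is unknown and no value carries a counting error.

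All 3 genes of the elav family held thresholded summits, and in each at least 1 lay inside the gene. Of the 7 synaptic and channel genes, only nSyb and Syx1A held any in the window, and none of the 7 held one inside the gene. In all, 5 of the 10 genes had a thresholded summit in the window, beside 54.4% of all protein-coding genes. In the classes of window length that hold the members, that share was from 58.3% to 72.3%. The count over the whole list is thus near the share of all genes and not above that of genes of like length. The share for a summit inside the gene is 13.1% of all genes, without regard to length, and 3 of the 10 had one. The windows of the elav family held 9 thresholded summits in 90.6 kb, or 9.93 per 100 kb. Those of the other 7 genes held 5 in 303 kb, or 1.65 per 100 kb, and the 6 arms held 4.26. All 5 were in the windows of the 5 synaptic genes, which gives 3.30 per 100 kb there, and the 2 channel genes held 0 in 152 kb. With 3 genes against 7, each at its own locus, this contrast is a description without a test.

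The count of 5 genes is set out here under other choices. With 2 kb to either side it was 5, beside 40.3% of all genes, and with 10 kb it was 9, beside 68.7%. Among the strongest 2850 thresholded peaks it was 4, beside 37.3%, since fne dropped out. Taking the first 5701 ranks of either replicate by itself, it was 5 in each, beside 55% in replicate 2 and 52.9% in replicate 3, and the 5 genes were the same.

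**Figure D1:**
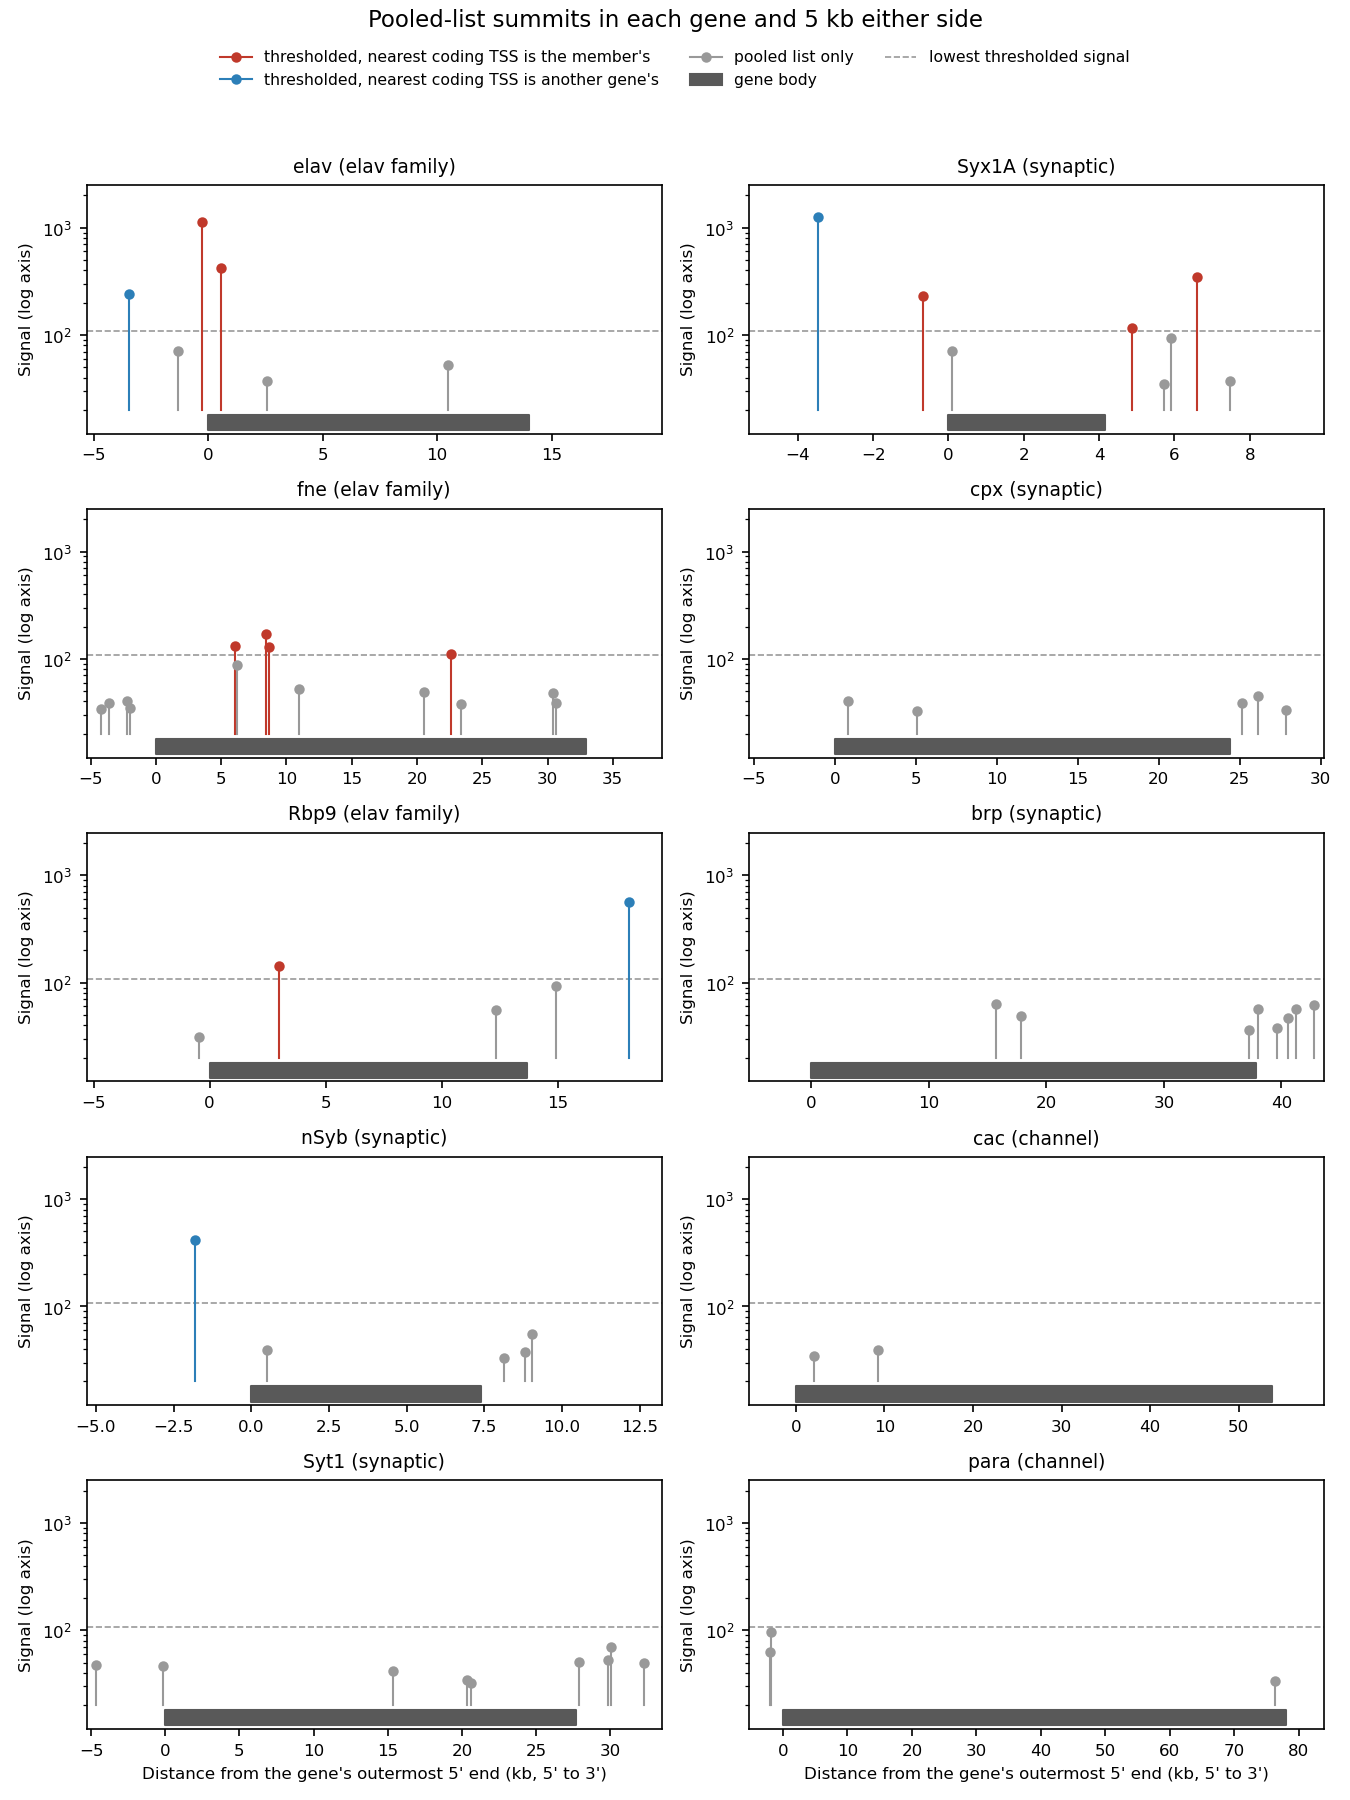
Pooled-list summits of each gene, with the distance from the outermost 5' end of the gene in kb on the x axis and the pooled signal on a log y axis. Red and blue summits are in the thresholded list, and grey ones are not. For red summits the nearest coding start site is the member's, and for blue ones another gene's. The dark bar is the gene, and the dashed line is the lowest thresholded signal of 108. The elav family has red summits in or next to the gene, and elav and Rbp9 each have a blue summit outside it. nSyb has 1 blue summit, Syx1A has red and blue summits outside the gene, and Syt1, cpx, brp, cac and para have grey summits alone.

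Some of the thresholded sites are shown as the 101 bp centred on the summit, from the dm6 reference sequence and read along the strand of the named gene. Capitals mark matches, on either strand, to sequences linked to this protein family or common in fly regulatory DNA, which are CACGCG, the N box CACNAG, any E-box CANNTG, and GAGAG. Sequences with no capitals hold none of them. The first 5 belong to the elav family by nearest start site, and the last 4 to synaptic windows.
elav upstream site, chrX:523428-523528, minus strand: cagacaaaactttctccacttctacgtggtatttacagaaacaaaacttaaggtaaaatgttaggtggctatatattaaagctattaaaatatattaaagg
elav intron site, chrX:522593-522693, minus strand: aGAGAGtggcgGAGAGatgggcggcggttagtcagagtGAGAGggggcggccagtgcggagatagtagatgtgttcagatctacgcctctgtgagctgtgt
fne first of a pair, chrX:12925902-12926002, plus strand: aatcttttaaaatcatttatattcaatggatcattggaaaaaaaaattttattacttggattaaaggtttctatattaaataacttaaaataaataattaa
fne second of the pair, chrX:12926102-12926202, plus strand: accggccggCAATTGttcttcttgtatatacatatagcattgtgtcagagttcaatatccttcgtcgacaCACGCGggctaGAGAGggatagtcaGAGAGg
Rbp9 intron site, chr2L:2957711-2957811, plus strand: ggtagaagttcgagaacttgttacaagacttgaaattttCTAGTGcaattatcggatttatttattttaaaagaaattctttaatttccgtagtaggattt
Syx1A upstream site, chr3R:24106382-24106482, minus strand: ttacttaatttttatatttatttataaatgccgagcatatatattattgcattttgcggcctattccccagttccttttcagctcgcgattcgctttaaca
Syx1A downstream site, chr3R:24099114-24099214, minus strand: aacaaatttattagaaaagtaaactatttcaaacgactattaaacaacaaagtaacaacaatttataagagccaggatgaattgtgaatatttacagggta
CG18428 and eIF4EHP site in the Syx1A window, chr3R:24109182-24109282, minus strand: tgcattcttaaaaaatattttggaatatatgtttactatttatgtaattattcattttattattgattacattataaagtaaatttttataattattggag
Bgb and Mettl2 site in the nSyb window, chr3L:1639521-1639621, minus strand: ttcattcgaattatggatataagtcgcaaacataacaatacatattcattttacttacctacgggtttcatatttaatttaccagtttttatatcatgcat

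The gene elav, which encodes the founding nuclear RNA-binding protein of the family, had the strongest own site of the 10. A site is called a gene's own here if its nearest protein-coding start site is that gene's. The gene lies on X at 509235 to 523226, on the minus strand, and overlaps arg on the other strand over most of its length. A peak at X 523296 to 523677 had its summit 252 bp upstream of the outermost start site of elav, in an intron of arg, with ranks of 85 among pooled peaks, 87 in replicate 2 and 94 in replicate 3. The authors gave it a signal of 1133 among pooled peaks, 714 in replicate 2 and 424 in replicate 3. These ranks are among the first 100 in each list, and both replicate summits lay within 3 bp of the pooled one. Of all protein-coding genes, 2.09% had a summit of pooled rank 85, the rank of this site, or better in their window. Among the members the windows of elav and Syx1A did, and elav was the only one whose own site reached that rank. It was also the only member with a thresholded summit within 500 bp of its own start site, which 23.2% of all protein-coding genes had.

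A second elav site lay 583 bp downstream of the same start site, in an intron, at X 522518 to 522763. Its ranks were 805 among pooled peaks, 934 in replicate 2 and 689 in replicate 3, with a pooled signal of 425. Its centre is rich in G and C, at 58.4%, where the upstream site has 28.7%. At these 2 sites elav thus held a strong AT-rich site before the start and a GAGAG-bearing site after it. Another summit, 3470 bp upstream of elav and still in arg, had pooled rank 2086, replicate 2 rank 2167 and replicate 3 rank 2107, and lay nearer to a start site of CG4293, at 3153 bp, than to that of elav. The non-coding gene lncRNA:enrr shares the outermost start of elav, so the upstream site is as close to that RNA as to elav.

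fne, an elav paralog whose name stands for found in neurons, showed another arrangement, with several weak sites deep in the gene and no thresholded one at the first start. It lies on X at 12917477 to 12950417 on the plus strand, and all 4 of its thresholded summits were intronic. The strongest, at X 12925744 to 12926159, lay 8468 bp downstream of the nearest fne start, with rank 3295 among pooled peaks, 3425 in replicate 2 and 3763 in replicate 3, and a pooled signal of 172. Next to it, 200 bp further on, a summit had rank 4591 in the pooled list and 4374 in replicate 2 but 17404 in replicate 3, so the second of the pair was weak in 1 replicate. No pooled summits anywhere were closer than 199 bp, and the intervals of the pair overlap, so the pair may hold a single site split by the peak caller or 2 sites.

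The other fne summits were close to the end of the thresholded list. One 6019 bp downstream of a start had rank 4549 in the pooled list and 4334 in replicate 2, while the nearest summit of replicate 3 was 164 bp away, with rank 5596. The last lay 1165 bp upstream of an internal start site of fne, at X 12939899 to 12940314, with rank 5467 among pooled peaks, 5804 in replicate 2 and 5455 in replicate 3. Its pooled signal of 112 is the lowest of any thresholded member summit. None of the 4 was among the strongest 2850 thresholded peaks, which held 3 summits of the elav window and 1 of the Rbp9 window.

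Rbp9, the third paralog, is expressed in neurons and in the ovary. It lies on 2L at 2954762 to 2968434, on the plus strand, and had a single intronic site of its own at 2L 2957553 to 2957968, which was 850 bp downstream of an internal start and 2999 bp from the outermost one. Its rank was 4053 among pooled peaks, 3908 in replicate 2 and 4047 in replicate 3, with a pooled signal of 144. This is weaker than either elav site and in the range of the fne sites. A stronger summit in the Rbp9 window, with rank 456 among pooled peaks, 447 in replicate 2 and 458 in replicate 3, lay beyond the gene between gammaTub23C, a gamma-tubulin gene, and Rrp1, a DNA repair nuclease gene. It was 78 bp upstream of the first and 305 bp upstream of the second.

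Among the vesicle fusion genes, Syx1A, which makes the plasma membrane SNARE syntaxin, stood apart with 4 thresholded summits in a window of 14.2 kb. Of the 3943 protein-coding genes with windows over 12000 and up to 15000 bp, 2.84% had as many or more. Syx1A lies on 3R at 24101600 to 24105763 on the minus strand, inside eIF4EHP, a translational repressor gene read from the same strand. No thresholded summit was inside Syx1A itself. The site 669 bp upstream of its start, at 3R 24106224 to 24106639 in an intron of eIF4EHP, had rank 2203 among pooled peaks, 2164 in replicate 2 and 2139 in replicate 3, with a pooled signal of 232.

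Beyond the 3' end of Syx1A, again in introns of eIF4EHP, lay 2 more summits, at 3R 24099064 to 24099263 and 24100689 to 24101104. The first had rank 1161 among pooled peaks, 1175 in replicate 2 and 1223 in replicate 3. The second had rank 5256, 4725 and 5823 in the same order, so it fell beyond rank 5701 in replicate 3. They were 6599 and 4866 bp downstream of the Syx1A start, which is their nearest coding start site although they are outside the gene. The strongest summit of all 10 windows, at 3R 24108919 to 24109421, was 104 bp upstream of CG18428 and 272 bp upstream of eIF4EHP, in the gap between these divergent genes. It had rank 68 among pooled peaks, 60 in replicate 2 and 78 in replicate 3, with a pooled signal of 1245, and was 3469 bp from the start of Syx1A.

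nSyb, which makes the neuronal vesicle SNARE synaptobrevin, had 1 thresholded summit in its window, and it too stood between divergent neighbours. The peak at 3L 1639498 to 1639711 was 140 bp upstream of Bgb and 336 bp upstream of Mettl2, and 1819 bp upstream of nSyb. Its rank was 844 among pooled peaks, 1095 in replicate 2 and 610 in replicate 3, with a pooled signal of 416. At nSyb itself, on 3L at 1630348 to 1637752, the pooled list held a summit 354 bp downstream of a start site, with rank 18026 and a signal of 39.5, and replicate 3 had none within 100 bp of it.

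By the nearest coding start site, the summits in these windows were sorted into those of the member and those of a neighbour. Which gene a site acts on was not tested. Of the 14 thresholded summits, 10 had a start site of the member as the nearest protein-coding one, which left 4 with another gene. By that measure 4 of the 10 genes kept a site, beside 24.3% of all protein-coding genes: elav, fne, Rbp9 and Syx1A. That share rose with the length of the window. It was 14.8% for windows up to 12000 bp, and from 23.9% to 54.9% in the length classes of the members, so 4 is not a high count. The 4 summits within 500 bp of any coding start site were those of elav, CG18428, gammaTub23C and Bgb, and they were among the 5 strongest. Summits that close to a start made up 28.6% of the 14 and 44.9% of the whole thresholded list. Introns held 11 of the 14, where 46.6% of the whole list was intronic, and the other 3 were the intergenic sites between divergent genes.

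**Figure D2:**
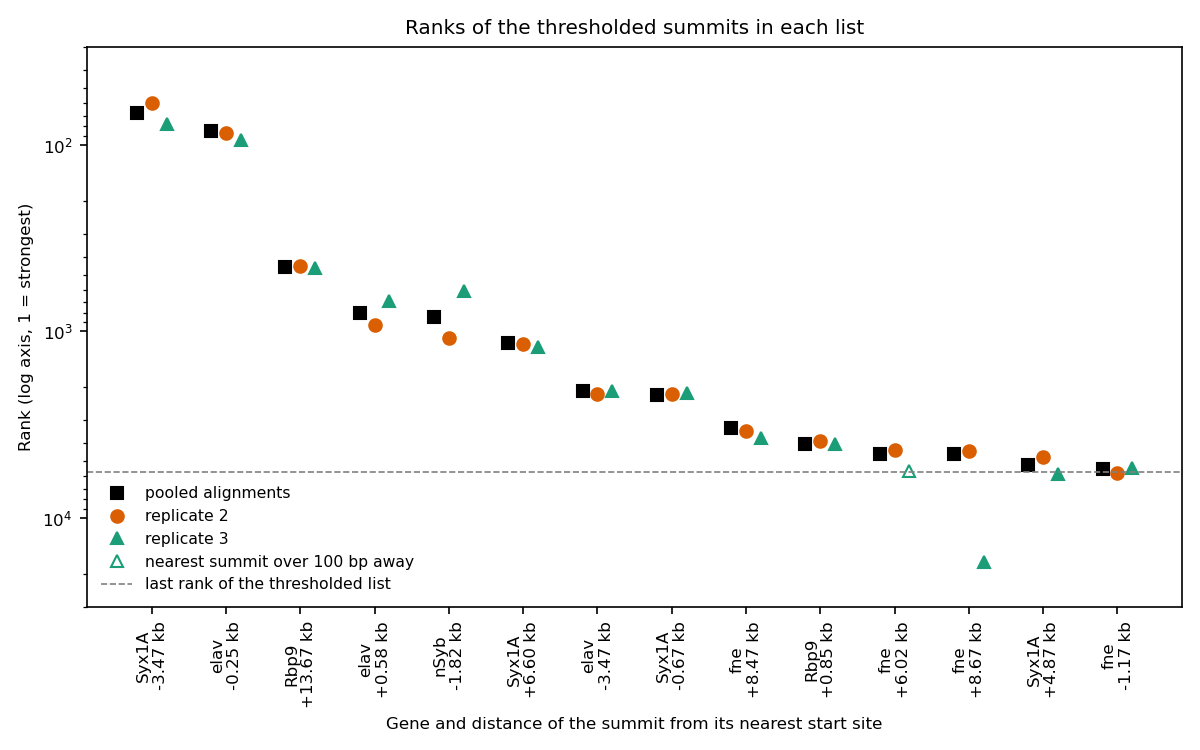
Ranks of the 14 thresholded summits in the pooled, replicate 2 and replicate 3 lists on a log axis, with strong peaks at the top. Each summit is labelled by the gene of its window and its distance from the nearest start site of that gene. The ranks of the 3 lists lie close together for most summits. In replicate 3 the fne summit 8668 bp from a start is far lower, at rank 17404, the open triangle marks the fne summit with no replicate 3 summit within 100 bp, and the nSyb summit is higher, at 610 against 1095 in replicate 2.

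Replicates gave nearly the same sites. A summit within 100 bp was present in replicate 2 for 14 of the 14 summits and in replicate 3 for 13, which left out the fne summit named above. In the whole thresholded list 96.0% had one in both. Strong sites kept close ranks, from 60 to 78 at CG18428 and from 87 to 94 at elav, while the nSyb window went from 1095 in replicate 2 to 610 in replicate 3. The thresholded list was made from these replicates, so this is not an independent check of it.

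The 5 genes without a thresholded summit were Syt1, cpx, brp, cac and para. All had pooled-list summits below the threshold, which may be background. A pooled-list summit of any strength, thresholded or not, was in the windows of 10 of the 10 genes and of 86.9% of all protein-coding genes. Syt1, the calcium sensor of vesicle fusion, had a best pooled rank of 8988, with a signal of 70.4, and that summit was 132 bp from the start of its neighbour colt. cpx, whose product complexin binds the assembled SNAREs, had a best pooled rank of 15091, and brp, the scaffold of the presynaptic active zone, had 10031. Inside brp, on 2R at 9503765 to 9541565, 2 intronic summits with pooled ranks 10031 and 13422 were found in both replicates, 3047 and 5189 bp downstream of an internal start. Of the 8 pooled summits in the brp window, 5 lay beyond the 3' end of the gene, and 1 of rank 20872 lay in its 3' UTR. In replicate 3 the best rank in the brp window was 6307 and that in the cpx window 10398, both still beyond 5701.

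The 10 windows stop short of strong peaks at other genes. Between 5 and 10 kb from the gene ends lay 13 more thresholded summits, in the surroundings of 9 of the genes, and 12 of them were within 500 bp of a coding start site, none of them a member's. The strongest was 5616 bp beyond the 3' end of brp, 223 bp upstream of CG1888, with a signal of 2008 and rank 15. Next were a summit of rank 119 beside nSyb, 127 bp upstream of CG13919, and one of rank 377 beside Syt1, 147 bp upstream of Snx21. The flank thus decides whether a window such as that of brp is counted.

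The channel genes held the fewest pooled-list summits for their length, and none of these was thresholded. cac, the calcium channel subunit of the presynaptic terminal, had 2 pooled summits in a window of 63.8 kb, with a best rank of 18249. The deposited −log10 q values of these 2 were 0.21 and 0.09. para, the sodium channel of the action potential, had 3 in 88.1 kb. Of the 461 protein-coding genes with windows over 50000 bp, 8.24% had 2 or fewer pooled summits and 11.5% had 3 or fewer. The best summit of para came nearest to the threshold of all 5 genes, at 0.883 times its signal. It lay 1793 bp upstream of the outermost para start, with rank 6567 among pooled peaks, 6139 in replicate 2 and 8712 in replicate 3. Within the thresholded list the closest member was the last fne summit, at rank 5467.

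**Figure D3:**
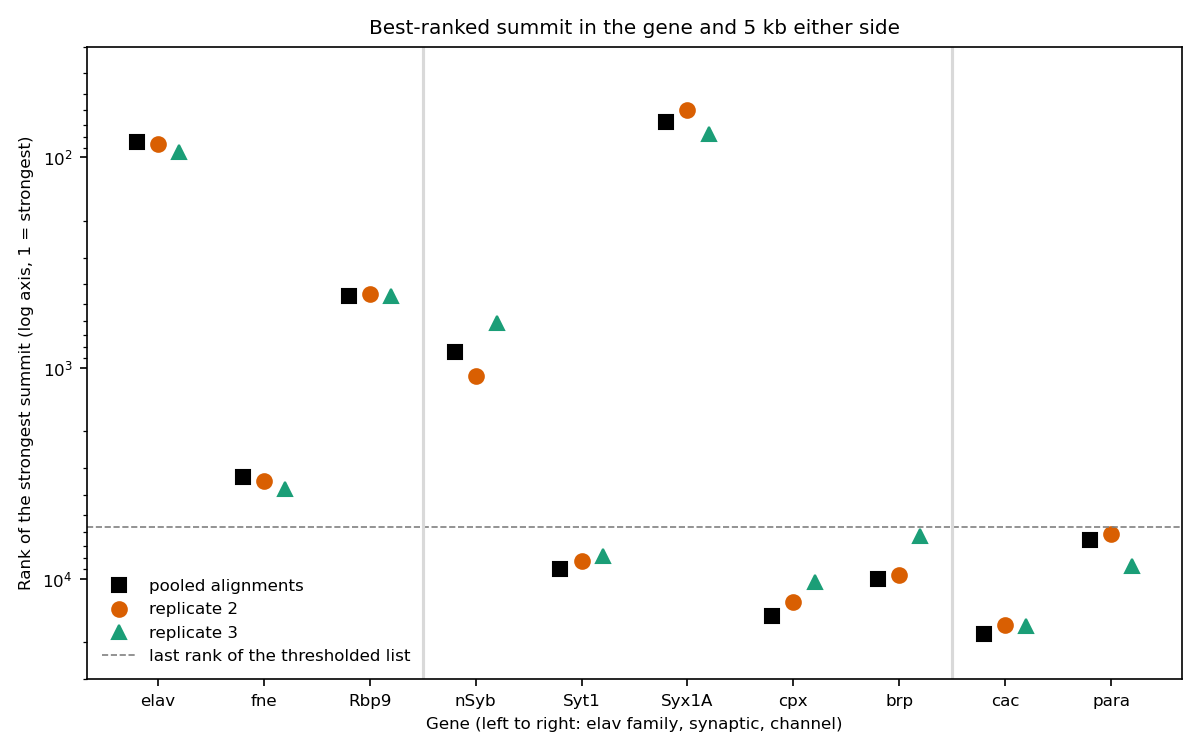
Rank of the strongest summit in the window of each gene on a log axis, for the pooled list (squares), replicate 2 (circles) and replicate 3 (triangles). The dashed line is rank 5701. elav, fne, Rbp9, nSyb and Syx1A are above the line in all 3 lists, and Syt1, cpx, brp, cac and para are below it in all 3.

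The order of the genes by strongest summit was Syx1A (68), elav (85), Rbp9 (456), nSyb (844), fne (3295), para (6567), Syt1 (8988), brp (10031), cpx (15091) and cac (18249) in the pooled list. The first 5 kept this order in both replicates. Below the threshold replicate 2 kept the order too, while replicate 3 put brp first, at 6307, then Syt1, at 7784, and para, at 8712. The order of these 3 thus differed between the replicates. cpx and cac came after them in every list, with cac last. Counting only summits nearest to the member's own start, the order of pooled ranks was elav (85), Syx1A (1161), fne (3295) and Rbp9 (4053).

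Long genes have more room for summits, which bears on the count of each gene. Of the protein-coding genes with windows over 30000 and up to 50000 bp, where fne, Syt1, cpx and brp fall, 72.3% had a thresholded summit, with a mean of 1.98. fne had 4, a count reached by 20.1% of that class, and the other 3 had none, as did 27.7%. For elav and Rbp9, in the class up to 30000 bp, the mean was 1.57, and 22.4% of the class had at least the 3 summits of elav. cac and para were in the class with a mean of 2.85, of which 28.2% had none. Over all lengths, elav, fne and Syx1A were the members with 3 or more thresholded summits, and 11.6% of all protein-coding genes had as many.

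**Figure D4:**
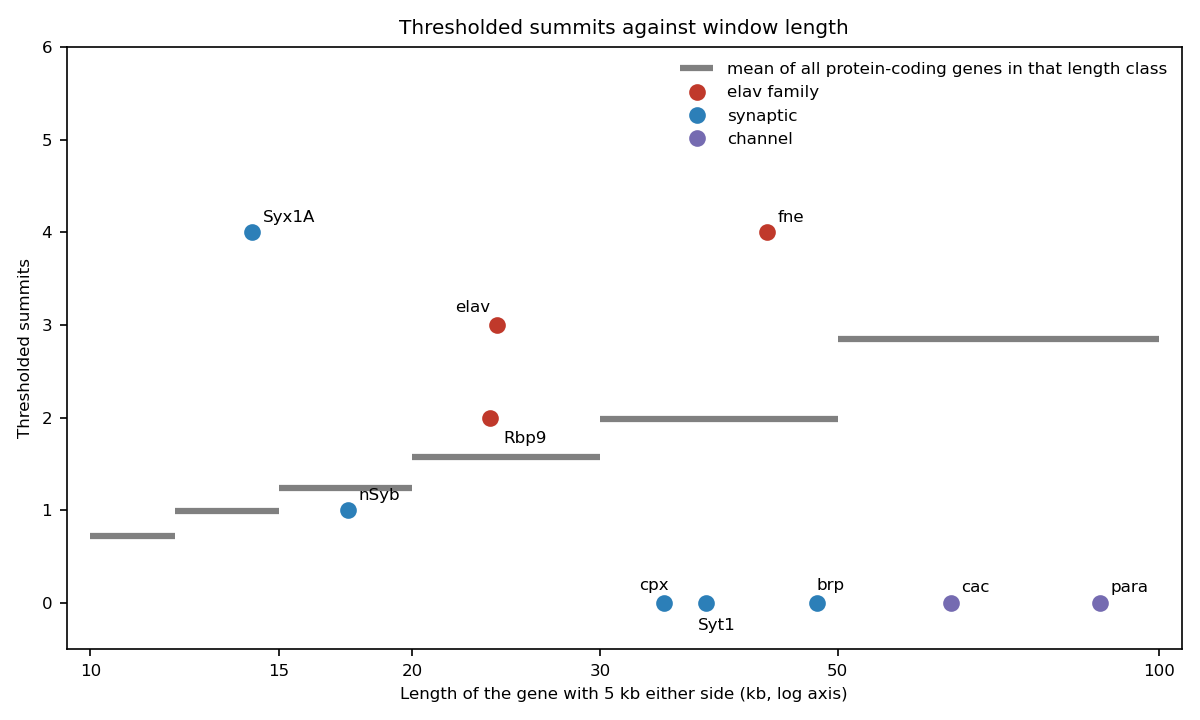
Number of thresholded summits in the window of each gene against the length of the window in kb on a log axis. Grey bars are the mean over all protein-coding genes of a length class, and the last class runs on beyond 100 kb. Syx1A, elav, Rbp9 and fne are above the bar of their class, nSyb is just below it, and the 5 genes with windows of 34.4 kb or more other than fne are at 0.

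Weak summits, which may be background, were found at the starts of the genes in replicate 2 and not in replicate 3. Within 500 bp of a start site of their own, 6 of the 10 genes had a pooled-list summit, beside 48.1% of all protein-coding genes, and these were elav, fne, Rbp9, nSyb, Syt1 and Syx1A. Outside the thresholded list these genes had 7 such summits, and all 7 had a replicate 2 summit within 100 bp, while 0 had one in replicate 3. At Syx1A, for example, the summit 91 bp downstream of the start had pooled rank 8983 and replicate 2 rank 6792, and at Syt1 the summit 158 bp upstream had pooled rank 14645 and replicate 2 rank 10141. The replicate 2 list is longer, with 30000 peaks against 24781 in replicate 3. The same count was not made for the starts of all genes, so whether this is particular to the members is unknown. Over all member windows 51 pooled summits were below the threshold, and 16 of them (31.4%) were present in both replicates, where the whole pooled list below the threshold had 36.4%.

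The DNA under the 14 summits was searched for sequences that the family is known to bind and for sequences linked to other proteins, beside all thresholded windows. The E-box CACGTG occurred in 0 of the 14 windows of 101 bp, and in 0.684% of all thresholded windows. CACGCG was present in 1, the second fne site of the pair, beside 1.18% of all windows. The N box CACNAG was present in 1, the Rbp9 intron site, beside 9.70%, and any E-box CANNTG, which takes in CACGTG, in 4, beside 35.3%. The 4 forms searched for the binding site of the Notch-dependent activator Su(H) (CGTGGGAA, CGTGAGAA, TGTGGGAA and TGTGAGAA) occurred in 0, beside 0.859%. The DNA replication-related element TATCGATA, the promoter sequence GGTCACACT and the early embryonic sequence CAGGTA also occurred in 0 windows, beside 1.67%, 0.544% and 2.03%. All were searched on both strands. A single window is 7.14% of the 14, so shares this small are not resolved.

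The sequence GAGAG, bound by GAGA factor, was found in 2 of the 14 windows of 101 bp, at the elav intron site and the second fne site, beside 8.58% of all. Within 201 bp it was found in 6 of the 9 elav family windows and in 0 of the 5 synaptic ones, beside 20.6% of all thresholded windows. The 6 were the elav intron site, all 4 fne sites and the Rbp9 intron site, so each gene of the family had at least 1 intronic site with it. The 4 fne windows include the pair whose intervals overlap. The content of G and C ranged from 14.9% to 58.4% over the 14 windows, with a median of 28.2%, where the median of all thresholded windows was 32.7%.

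A wider set of 58 other neuronal genes gives the surroundings of the 10. It was written down by function from general knowledge, with earlier results of these data known. Of these, 35 (60.3%) had a thresholded summit in their window, beside 54.4% of all genes, while 14 (24.1%) had one nearest to their own start, beside 24.3%. The median window of the set was 29.8 kb, against 12.2 kb for all genes. By the stricter measure the set is thus near the share of genes of all lengths, which are mostly shorter. The set's median window falls in the class over 20000 and up to 30000 bp. Of the genes in that class 69.8% had a thresholded summit in the window, and 43.9% had one nearest to their own start. By neither measure was the set above that class. Of the 10 members 4 passed the stricter measure, and whether the members differ from the set was not tested.

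The counts by group stand beside 54.4% of all genes, and 69.8% to 72.3% in the length classes over 20000 bp. The median windows of the groups, from 20.4 to 54.6 kb, fall in those classes. Vesicle and exocytosis genes had a thresholded summit in 10 of 20 windows, with Sytbeta, a synaptotagmin, highest (signal 464), followed by Syn, which makes synapsin (290). Genes of the active zone and synaptic adhesion had one in 7 of 10, led by the adhesion receptor gene Nrx-1, with a signal of 440 and a summit 114 bp from its start, and by Rim (280). Ion channel genes had one in 8 of 14, where the strongest were in the windows of the potassium channel genes eag (637) and sei (552). Neurotransmitter genes had one in 7 of 9, led by Gad1, which makes the enzyme of GABA synthesis (356), and ple, the tyrosine hydroxylase gene (292). ChAT and VAChT, both in this count, share the same summit. Cytoskeleton, pump and adhesion genes had one in 3 of 5, with Appl (241), through the summit 3470 bp upstream of elav, and Nrg (224). Of these 10 leading genes, Nrx-1 alone had its strongest summit nearest to its own start, while sei had a weaker own site at rank 905. In the order given, the groups had 3, 3, 5, 2 and 1 genes with a thresholded summit nearest to their own start. The share of all genes was 24.3%.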

How the data were processed

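Peak lists on build dm6 from the 2 replicates of the GFP ChIP, numbered 2 and 3, were used. Per the labels, chromatin was sonicated to 200 to 800 bp. Per the listings deposited with the files, peaks were called with a control file on each replicate and on both together, and the thresholded list is the output of the IDR procedure. Which aligner and peak caller were run was not given in the sources used here. The deposited signal per peak is the authors' own enrichment score, on a scale set within each list. The deposited −log10 q values were not used for any selection.

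Summits were placed with Python 3.11.15, numpy 2.4.6 and pandas 2.3.3 on genes of Ensembl release 115 (dm6 coordinates), in 1-based positions. Sequence came from the RefSeq copy of the same assembly, whose arm lengths hold all peaks. Counting was tested on simulated data. Start sites are those of protein-coding genes, and distances are signed along the strand. Introns are what is left of a gene when every annotated exon of any gene is removed. No test was run, since there is 1 group, genes are not replicates and the counts over members are read against all protein-coding genes. All members, all their thresholded summits and up to 2 leading genes per group of other neuronal genes are named. The members, lists and motifs were chosen with earlier results of these data known. Lists on dm3 were not used here. Alternatives changed the flank, the threshold, the assignment to genes, the replicate, the distance for a shared summit and the motif window.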

Additional observations from a re-analysis of the deposited data

How the results depend on the processing

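No paired analysis was possible because the series has 1 group, so no groups share replicate numbers. The 3 elav family genes kept a thresholded summit with 2 kb or 10 kb of flank, with none, with nearest start sites and with either replicate alone, and 2 of the 3 did among the strongest 2850 thresholded peaks. With the gene alone, 3 members, 6 summits, 0 synaptic and channel genes and a best elav family rank of 805 were left. With 10 kb there were 9 members, 27 summits and 6 synaptic and channel genes, whose best rank became 15, and 12 of the 13 added summits were within 500 bp of a start, none of them a member's. That best rank was 844 with 2 kb and 1161 with nearest start sites, where 1 synaptic or channel gene was left. Those 2850 peaks held 8 summits. The whole pooled list gave 10 members, 65 summits and 7 synaptic and channel genes. Without replicate 2 or replicate 3, each alone gave 5 members, 13 summits, 3 elav family and 2 synaptic and channel genes, with best ranks of 87 to 94 for the elav family and 60 to 78 for the others. Of the other neuronal genes, 36 had a summit without replicate 2 or replicate 3, 27 with 2 kb and 14 with nearest start sites, all 4 settings chosen after seeing the data. Summits shared by both replicates were 13 at 50 bp and 14 at 250 bp or by overlap. Within 100 bp of the summit, GAGAG was found in 6, the N box in 2 and any E-box in 7. Depth is unknown, so the absence of a summit at the 5 genes is a limit of these lists, not evidence of no binding.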
